A study of Bos taurus with 45 samples.

Results

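Transcripts of 10 genes that remove superoxide and hydrogen peroxide were followed in bovine endometrium and conceptus tissue cultured together or apart. They are the 6 peroxiredoxins (PRDX1 to PRDX6), the superoxide dismutases SOD1 and SOD2, thioredoxin (TXN) and catalase (CAT), taken by symbol. All 10 were found in both count tables, among 27270 genes for endometrium and 16149 for conceptus tissue, and all 10 passed the filter on low counts in both. The tissues came from Angus-Holstein heifers on Day 16. Endo-IVD Conc endometrium (15 libraries) was an intercaruncular explant of a cyclic, non-bred uterus, cultured for 12 h in RPMI medium with a section of an elongated conceptus, and Endo (13 libraries) was such an explant cultured alone. Endo-IVD Conc conceptus (9 libraries) was the conceptus section cultured on an explant, and IVD Conc (8 libraries) was a section cultured alone. The IVD conceptuses developed in vivo in other heifers, bred by artificial insemination. The same uterus gave explants for both cultures in 11 cases and the same conceptus gave both sections in 7 cases, so each comparison was made within animals. Uteri 15 and 17 and conceptus 5 were sequenced in mono-culture only. For 4 uteri and 2 conceptuses, tissue from 2 co-cultures each was sequenced. Among co-cultured explants, conceptuses 5, 8, 10, 26, 47 and 71 each served 2 uteri. The endometrial test blocked on the uterus, so this sharing of a conceptus was not in its main model. Each library is a piece of whole tissue, and fewer cells of a type and less RNA per cell cannot be told apart in it.

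Superoxide is turned into hydrogen peroxide by SOD1 in the cytosol and by SOD2 in the mitochondrial matrix. Peroxiredoxins reduce hydrogen peroxide through a reactive cysteine, and most of them are returned to the reduced state by thioredoxin, while catalase breaks hydrogen peroxide down in peroxisomes. The peroxiredoxins differ in where they work: PRDX1, PRDX2 and PRDX6 chiefly in the cytosol, PRDX3 in mitochondria, PRDX4 in the endoplasmic reticulum and PRDX5 in several compartments. Endometrium and the elongating conceptus are known to be metabolically active around Day 16, when the conceptus secretes interferon tau.

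Libraries held 44206002 to 63970863 counts in endometrium and 58583647 to 104436922 counts in conceptus tissue. The tissue labels were checked against marker genes. In explants, 12 endometrial stroma markers summed to 4870 to 12300 CPM (counts scaled to a common library size) in Endo-IVD Conc endometrium and to 5320 to 24100 CPM in Endo. The 13 trophoblast markers in the endometrial table summed to 162 to 971 CPM in Endo-IVD Conc endometrium and to 273 to 1050 CPM in Endo. Of these, 7 had a median under 1 CPM in each group, and the rest include genes that endometrium also transcribes. In sections, 15 trophoblast markers summed to 11700 to 64700 CPM in Endo-IVD Conc conceptus and to 4350 to 66400 CPM in IVD Conc. The 8 stroma markers in the conceptus table summed to 15.7 to 191 CPM in co-cultured sections and to 17.1 to 281 CPM in sections alone. The 12 endometrial epithelium markers summed to 347 to 3340 CPM in Endo-IVD Conc endometrium and to 403 to 2690 CPM in Endo. In sections they summed to 22000 to 47100 CPM in co-culture and 11500 to 27600 CPM alone, so this list could not check the labels. Levels below are CPM scaled by TMM, set side by side only within 1 gene and 1 tissue, since genes differ in length and the tissues were aligned by different programs.

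In endometrium, PRDX2 and SOD1 were lower in co-culture, by less than 20% each, and the other 8 genes did not pass the test. PRDX2, a cytosolic peroxiredoxin that is also abundant in red blood cells, measured 72.2 CPM at the lowest, 96.5 CPM at the median and 117 CPM at the highest in the 15 Endo-IVD Conc explants, against 86.5, 117 and 241 CPM in the 13 Endo explants. The groups overlapped, yet 6 of the 15 co-cultured explants lay below every explant cultured alone. Within uteri, PRDX2 was lower in co-culture in 10 of 11. The exception was uterus 16, at 117 CPM with the conceptus and 111 CPM alone. The largest differences were in uterus 53, at 111 CPM in co-culture and 161 CPM alone, and uterus 45, at 109 CPM in co-culture and 156 CPM alone. PRDX2 fell by 17.9% (95% interval from -24.9% to -10.2%), or -0.28 on the log2 scale (standard error, SE, 0.061), and its edgeR adjusted p was 0.00419. The 2 co-cultures of 1 uterus differed in PRDX2 by 0.10 on the log2 scale at the median of 4 uteri (highest 0.28).

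**Figure D1:**
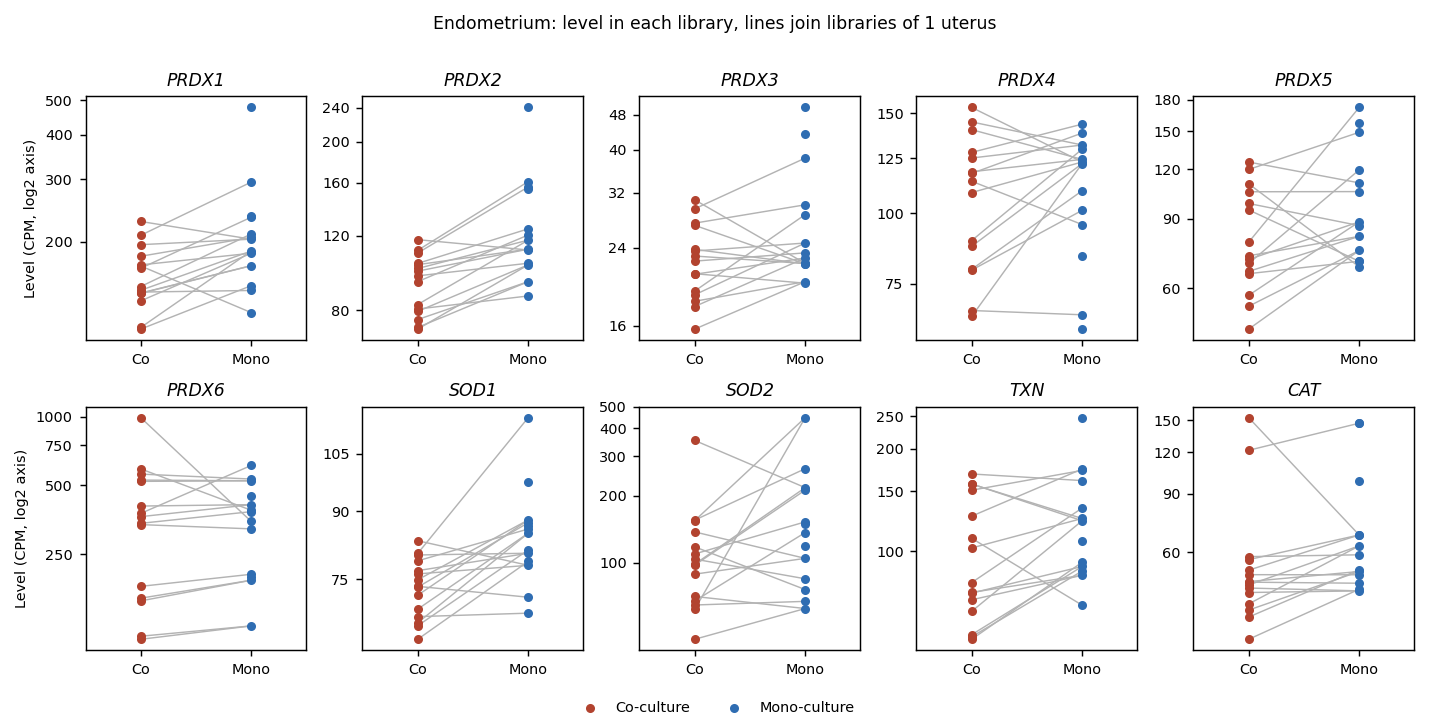
Level of each gene in every endometrial library, in CPM on a log2 axis, with 15 co-cultured explants (Co, left) and 13 explants cultured alone (Mono, right); grey lines join explants of 1 uterus. PRDX2 slopes up towards mono-culture in 10 of 11 uteri, while PRDX6 and CAT hold 1 co-cultured explant, of uterus 16, above all others.

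SOD1, the copper-zinc superoxide dismutase of the cytosol, spread little. It measured 63.9 CPM at the lowest, 73.6 CPM at the median and 83.2 CPM at the highest in Endo-IVD Conc endometrium, against 68.5, 84.9 and 116 CPM in Endo. The groups overlapped, and 9 of 11 uteri had the lower level in co-culture. Uterus 53 had the largest difference, with 80.4 CPM in co-culture and 116 CPM alone. SOD1 fell by 11.9%, or -0.18 on the log2 scale (SE 0.057, edgeR adjusted p = 0.0477). This call stood at the threshold: SOD1 missed it in 15 of 21 alternatives, among them every one that left out 1 of 7 culture sets (adjusted p = 0.0661 to 0.144 from edgeR), and its direction was the same in all 21. PRDX2 passed in all 21, with an adjusted p of 0.0444 at the highest.

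The 2 called genes of 10 are to be read against 10.5% of all 16443 genes tested, of which 6.69% were called higher and 3.85% lower. Those calls were 1100 higher and 633 lower, and with upper-quartile scaling, which moved the median of all genes to -0.07 on the log2 scale, they were 951 higher and 1475 lower. Of the 10 genes, 9 had a fold change below 0, against 51.2% of all genes, and their median log2 fold change was -0.20, against -0.01 over all genes. The other cytosolic peroxiredoxin of the same subfamily, PRDX1, had a median of 150 CPM in Endo-IVD Conc endometrium (lowest 114, highest 228) and of 204 CPM in Endo (lowest 126, highest 477). It was lower in 9 of 11 uteri, with a log2 fold change of -0.24 (SE 0.085, edgeR adjusted p = 0.0793). PRDX1 passed in 4 of 21 alternatives, among them DESeq2 (adjusted p = 0.0362) and the edgeR fit with upper-quartile scaling (adjusted p = 0.018). Uterus 15, which had no co-culture, held the highest PRDX1, PRDX2, PRDX3 and TXN of all explants, with 477, 241, 49.8 and 247 CPM. Without the uterus block, in which this explant then enters the difference, PRDX2 had a log2 fold change of -0.48, and without uterus 15 as well it had -0.35.

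The remaining 7 genes varied more than they differed between cultures. SOD2, the manganese enzyme of mitochondria, had the lowest log2 fold change of the 10 at -0.45, with a 95% interval from -0.97 to 0.08 (edgeR adjusted p = 0.322). It measured 45.5 to 353 CPM in Endo-IVD Conc endometrium (median 98.7) and 62.5 to 446 CPM in Endo (median 137). In uterus 19, SOD2 had a mean of 108 CPM over the 2 co-cultures and 446 CPM alone. The 2 co-cultures of 1 uterus differed in SOD2 by 0.63 to 1.84 on the log2 scale in 4 uteri. PRDX6, which also has phospholipase activity, had a log2 fold change of 0.03 (95% interval from -0.24 to 0.30). Its spread lay between uteri: the animal accounted for 91.1% of its variance beyond culture, against a median of 71.2% over all genes. For PRDX2 the share was 90.7%. These shares were not corrected for the number of animals, so a share arises even with no animal effect. Uteri 15 and 17, with 1 library each, count wholly as animal variance. In uterus 16, PRDX6 measured 989 CPM in co-culture and 347.5 CPM alone. The 2 explants of uterus 16 also differed in marker sums. Stroma markers summed to 10283 CPM in co-culture and 24124 CPM alone, and epithelium markers to 1805 CPM in co-culture and 403 CPM alone. The part of tissue makeup in the levels of uterus 16 was not tested. TXN, the thioredoxin that recycles peroxiredoxins, had a log2 fold change of -0.25 (95% interval from -0.54 to 0.04) and was lower in 8 of 11 uteri. PRDX5, PRDX4, CAT and PRDX3 had -0.21, -0.18, -0.12 and -0.10, with adjusted p-values of 0.278 to 0.585 from edgeR. In 1 of 21 alternatives PRDX3 passed, with 2 factors of unwanted variation and no uterus block (-0.285, edgeR adjusted p = 0.00225).

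Markers of blood vessels moved with the same comparison. Of 12 endothelial markers, 5 were called lower, led by VWF (log2 fold change -0.80) and PECAM1 (-1.06), and 2 were called higher (MMRN2 and ERG). Their summed level was 1510 to 3700 CPM in Endo-IVD Conc endometrium and 1760 to 4970 CPM in Endo. All 8 smooth muscle markers had a fold change above 0, with a median log2 fold change of 0.71. Each of edgeR, DESeq2 and limma-voom called 0 of them (0 at an unadjusted p under 0.05 in edgeR and DESeq2, 2 in limma-voom). Their sum reached 9520 CPM in co-culture (lowest 493), against 280 to 1780 CPM in Endo. Adjusted for the summed smooth muscle level, PRDX2 had a log2 fold change of -0.31 (edgeR adjusted p = 0.00332), and with the erythroid level it had -0.30 (edgeR adjusted p = 0.0113). The part of endothelial cells in the PRDX2 and SOD1 results was not tested.

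In conceptus sections, 0 of the 10 genes passed the test in edgeR, where 4.43% of all 14746 genes were called, 2.27% higher and 2.16% lower. DESeq2 and limma-voom likewise called 0, and 2 genes, PRDX2 and PRDX4, had an unadjusted p under 0.05 with each tool. PRDX2 measured 188 CPM at the lowest, 307 CPM at the median and 705 CPM at the highest in the 9 Endo-IVD Conc sections, against 165, 230 and 294 CPM in the 8 IVD Conc sections. The groups overlapped, with 5 of 9 co-cultured sections above every section cultured alone. Within conceptuses, PRDX2 was higher in co-culture in 7 of 7 and in all 9 co-cultured sections. Conceptus 50 had 317 CPM in co-culture and 179 CPM alone, conceptus 71 had 417 CPM in co-culture and 271 CPM alone, and conceptus 66 had 188 CPM in co-culture and 165 CPM alone. The gap was thus wide in some animals and narrow in others. Conceptus 22 had 274 CPM in co-culture and 210 CPM alone, and conceptus 8 had 283 CPM in co-culture and 249 CPM alone. Conceptus 26 had 204 and 307 CPM in its 2 co-cultures and 198 CPM alone, and conceptus 47 had 321 and 705 CPM in co-culture and 265 CPM alone. The log2 fold change was 0.51 (SE 0.18, 95% interval from 0.11 to 0.91), with an edgeR adjusted p of 0.101. It passed with the 2 co-cultures of 1 conceptus summed (0.48, edgeR adjusted p = 0.0314) and with 2 factors of unwanted variation estimated from the residuals (0.49, adjusted p = 0.00213), and missed the threshold in the other 15 alternatives.

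**Figure D2:**
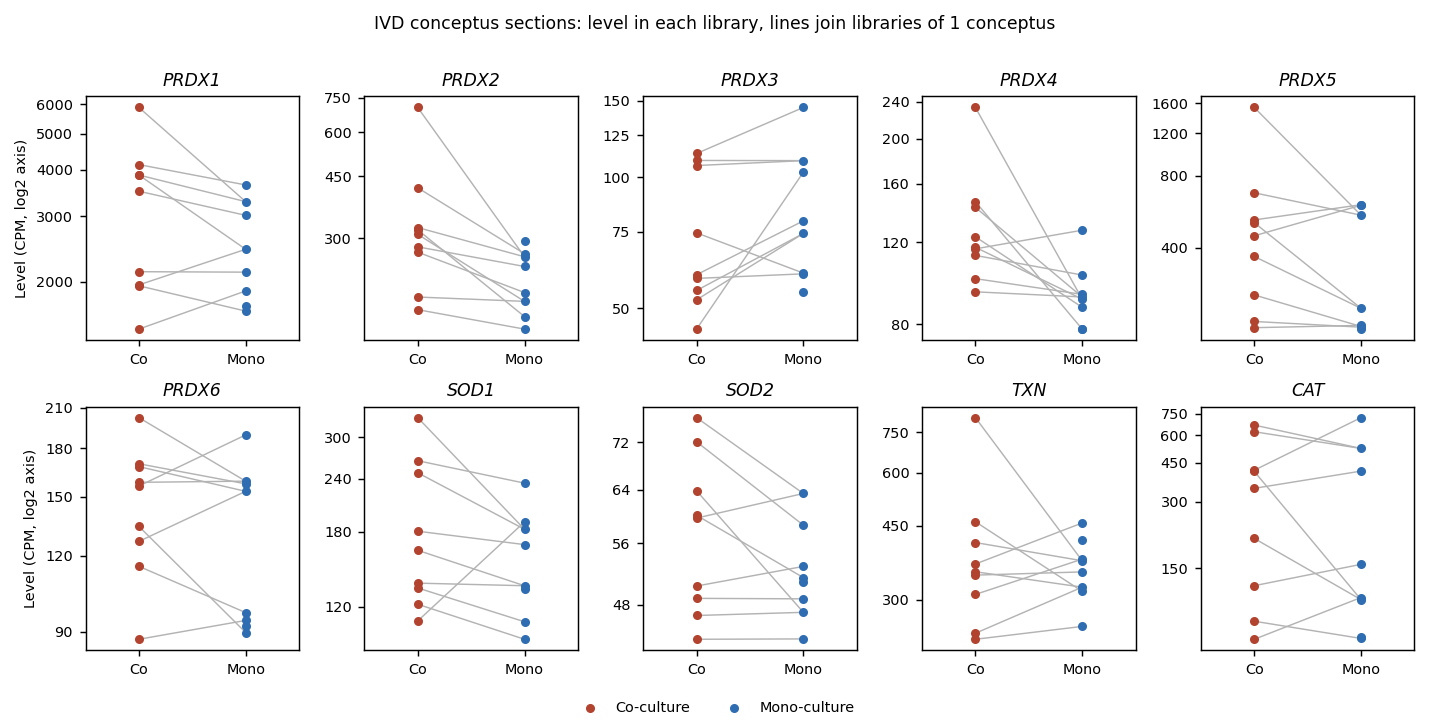
Level of each gene in every conceptus library, in CPM on a log2 axis, with 9 co-cultured sections (Co, left) and 8 sections cultured alone (Mono, right); grey lines join sections of 1 conceptus. PRDX2 is higher in co-culture on every line, and the section of conceptus 47 on uterus 54 is the topmost point for PRDX1, PRDX2, PRDX4, PRDX5, PRDX6, SOD1 and TXN.

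PRDX4, the peroxiredoxin of the endoplasmic reticulum, where it uses hydrogen peroxide made during disulfide formation, measured 93.9 CPM at the lowest, 117 CPM at the median and 234 CPM at the highest in Endo-IVD Conc conceptus, against 78.1, 91.1 and 127 CPM in IVD Conc. Only 3 of the 9 co-cultured sections lay above every section alone. It was higher in 6 of 7 conceptuses, with conceptus 22 the exception at 116 CPM in co-culture and 127 CPM alone. Its log2 fold change was 0.42 (95% interval from 0.02 to 0.83, edgeR adjusted p = 0.161). PRDX4 passed in 1 of 17 alternatives (edgeR adjusted p = 0.0122). The mitochondrial PRDX3 was the 1 gene with a fold change below 0, at -0.31 (95% interval from -0.63 to 0.02, edgeR adjusted p = 0.198). It was lower in 6 of 7 conceptuses, most of all in conceptus 8, at 44.8 CPM in co-culture and 103 CPM alone. PRDX5, PRDX1, SOD1, SOD2, PRDX6, TXN and CAT had log2 fold changes of 0.31, 0.18, 0.15, 0.12, 0.09, 0.07 and 0.04, with adjusted p-values of 0.406 to 0.939 from edgeR. Of these, PRDX5 passed in 1 of 17 alternatives (edgeR adjusted p = 0.042) and changed direction in 1. Of all 10 genes, 9 were above 0, against 49.8% of all genes tested.

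One section stood apart. That of conceptus 47 on uterus 54 held the highest co-cultured level of 7 of the 10 genes, with 705 CPM of PRDX2, 1540 CPM of PRDX5 and 812 CPM of TXN. The other section of the same conceptus, on uterus 19, had 321 CPM of PRDX2 and 678 CPM of PRDX5. The TMM scaling factor of the section on uterus 54, 0.733, was the lowest of all sections, against 0.977 for that on uterus 19. A low factor raises every level in a library, and its part here was not tested. Without the section on uterus 54, the log2 fold change was 0.40 for PRDX2 (edgeR adjusted p = 0.0862), 0.32 for PRDX4 and -0.03 for TXN.

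CAT differed between conceptuses more than between cultures. It measured 71.6 to 666 CPM in co-cultured sections and 72.2 to 720 CPM in sections alone. The animal accounted for 89.4% of its variance beyond culture, not corrected for the number of animals, against a median of 67.5% over all genes. Alone, conceptuses 71, 47 and 8 had 720, 522 and 413 CPM of CAT, while the other 5 had 156 CPM or less. The same 3 conceptuses had the highest PRDX5 alone, with 601, 546 and 604 CPM, against 223 CPM or less in the other 5. Cell type markers followed the same division: trophoblast markers summed to 60147, 51761 and 66429 CPM in conceptuses 71, 47 and 8 alone and to 39719 CPM or less in the other 5. Markers of hypoblast and embryonic disc summed to 1999 CPM or less in these 3 and to 2826 CPM or more in the other 5, and the part of tissue makeup in CAT and PRDX5 was not tested. PRDX4 was at the other end of this uncorrected share, at 25.0%, a value that the block can reach with no effect of the animal.

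Transcripts of haemoglobin genes moved with co-culture in sections. Of 13 listed erythroid markers, only 5 were in the conceptus table. Of these 5, all tested, 4 had a fold change above 0 and 1 below, with a median log2 fold change of 0.89. Haemoglobin alpha (HBA) measured 1.16 to 69.3 CPM in Endo-IVD Conc conceptus (median 34.2) and 0.417 to 2.02 CPM in IVD Conc (median 0.907). It was the 1 of 5 erythroid markers called, and its median in co-cultured sections stood beside one of 37.7 CPM for the sum of all 5. Haemoglobin mu (HBM) had a median of 1.63 CPM in co-cultured sections and 0.106 CPM in sections alone. ALAS2, the erythroid enzyme of haem synthesis, had a median of 0.82 CPM in co-cultured sections and 2.22 CPM in sections alone. The 5 markers summed to 6.70 to 78.2 CPM in co-cultured sections and 4.55 to 11.5 CPM in sections alone. With that sum as a covariate, PRDX2 had a log2 fold change of 0.17 (SE 0.31) and PRDX4 one of 0.23 (SE 0.33). That fit called 0 of all 14746 genes in edgeR, with 516 at an unadjusted p under 0.05, against 4196 without the covariate, so its calls do not set these genes apart from others. Other marker sums shifted as well: 12 endometrial epithelium markers, several of which trophoblast also transcribes, summed to 22000 to 47100 CPM in co-cultured sections and 11500 to 27600 CPM in sections alone, and 9 endothelial markers to 43.4 to 109 CPM in co-cultured sections and 27.4 to 83.2 CPM in sections alone. Their part in the PRDX2 and PRDX4 values was not tested.

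The co-culture effects of the 2 tissues were then set against each other in 1 model over all 45 libraries. Each co-cultured section shared its well with an explant that is also a library in this model. The blocks were the animals within each tissue, so this pairing of section and explant was not in the model. The 10 genes were tested among 13769 genes, of which 22.2% were called and 10.9% were called with the higher effect in conceptus tissue. PRDX2 and PRDX4 were called. For PRDX2 the conceptus effect exceeded the endometrial effect by 0.78 on the log2 scale (SE 0.164, 95% interval from 0.44 to 1.11, edgeR adjusted p = 0.00164). The model took 1 spread per gene for both tissues. Yet the residual log2 standard deviation in endometrium and conceptus tissue was 0.133 and 0.367 for PRDX2, and 0.236 and 0.384 for PRDX4. The SE of the PRDX2 difference was below the 0.183 of its conceptus effect alone, so these adjusted p-values may be too low. The alternatives took the spread in the same way. The PRDX2 difference passed in 11 of 12 alternatives and was 0.67 without the section of conceptus 47 on uterus 54. It was lost with the erythroid level of each tissue as a covariate, added after the data were seen, at 0.44 (SE 0.24, edgeR adjusted p = 0.496), where 243 of all genes were called, against 3054 without the covariate. For PRDX4 the difference was 0.58 (SE 0.19, edgeR adjusted p = 0.032). It missed the threshold in 7 of 12 alternatives, including the erythroid covariate (0.44, edgeR adjusted p = 0.613) and those without culture sets 1, 3, 5 and 6 (adjusted p = 0.0636 to 0.108 from edgeR). PRDX1 and SOD1 had differences of 0.40 and 0.31, with unadjusted p-values of 0.0346 and 0.0377 and adjusted p-values of 0.108 and 0.115 from edgeR. The SOD1 difference passed in 1 of 12 alternatives. For PRDX3 the difference was -0.22 (95% interval from -0.55 to 0.10).

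**Figure D3:**
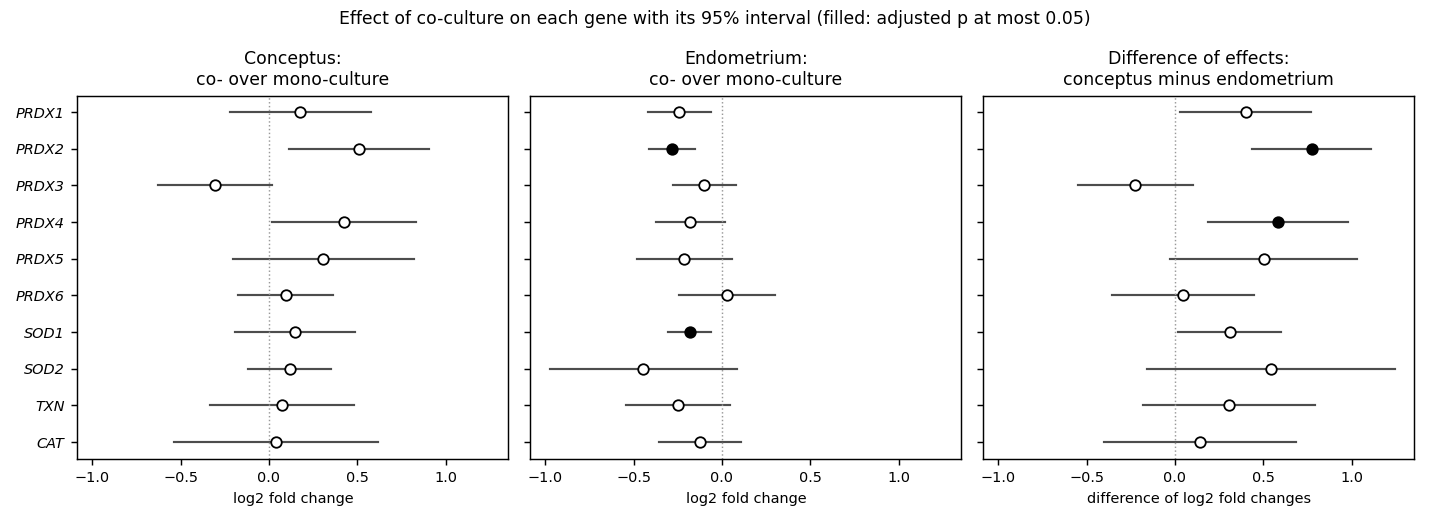
Log2 fold change of co- over mono-culture for each gene in conceptus tissue (left) and endometrium (middle), and the conceptus effect minus the endometrial effect (right), with 95% intervals; filled points have an adjusted p of at most 0.05. PRDX2 lies at 0.51 in conceptus tissue and -0.28 in endometrium. Of the 10 differences, 9 lie above 0, against 48.7% of all genes tested.

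Counts of PRDX2 were also set against those of its family within each library. Its share of the counts of the 6 peroxiredoxins was 11.5% at the median in Endo-IVD Conc endometrium (7.44% to 19.6%) and 13.8% in Endo (9.58% to 21.9%), and 8.75% in Endo-IVD Conc conceptus (4.28% to 11.3%) and 6.43% in IVD Conc (5.12% to 12.1%). These shares are not corrected for transcript length and were not tested. The log2 ratio of SOD2 to SOD1 counts had a median of 0.41 in Endo-IVD Conc endometrium and 0.43 in Endo, and of -1.45 in Endo-IVD Conc conceptus and -1.54 in IVD Conc.

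With culture and animal removed, the genes varied together in different pairs in each tissue. In conceptus sections PRDX2 correlated with PRDX4 (Pearson's r = 0.943 over 17 libraries with 8 residual degrees of freedom), and SOD2 correlated with PRDX4 (0.885) and PRDX2 (0.851). Without the section of conceptus 47 on uterus 54 these values were 0.866, 0.773 and 0.701, and that of PRDX4 with TXN was 0.266, against 0.712 with it. In endometrium the highest value was between PRDX3 and PRDX5 (0.927 over 28 libraries with 14 residual degrees of freedom), followed by PRDX1 and PRDX3 (0.838), while PRDX4 and SOD2 were at -0.506. These are descriptions of shared leftover variation, in which libraries of animals with 1 culture count for nothing, the 2 libraries of an animal with 1 pair mirror each other, and scaling and depth are shared. The genes most like PRDX2 in endometrium were SURF1 (0.861), CRYBA4 (0.86) and RPAIN (0.821), and those most like SOD1 were PHF5A (0.847), CREG1 (0.843) and LZTS2 (0.84).

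Of 95 tested genes in 6 lists of the surrounding pathway, 4 were called higher and 8 lower in Endo-IVD Conc endometrium, 12.6% in all, which is near the 10.5% of all genes. Among thioredoxin partners and enzymes that repair peroxiredoxins, SESN2 and TXNIP rose and TXNRD3 fell, of 12. TXNIP, which binds and inhibits thioredoxin, had a log2 fold change of 0.33 (edgeR adjusted p = 0.0455), SESN2, a sestrin induced by stress, had 0.40 (0.0282), and TXNRD3, a thioredoxin reductase, had -0.36 (0.00407). Among 6 genes of metal supply and extracellular dismutase, the zinc, iron and manganese importer SLC39A14 fell by 0.85 on the log2 scale (edgeR adjusted p = 4.02e-05) and the copper chaperone ATOX1 by 0.57 (0.0114). Of 17 genes of glutathione-dependent peroxide removal, the glutaredoxins GLRX2 (-0.33) and GLRX3 (-0.18) fell.

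Among 22 tested makers of superoxide and hydrogen peroxide, RAC1, an activator of NADPH oxidase, rose by 0.38 and NOX4, AOX1 and XDH fell in endometrium, of which XDH was named after its value was seen. NOX4, an oxidase that releases hydrogen peroxide, stood at -1.42 on the log2 scale (SE 0.28, edgeR adjusted p = 0.00219). Of 17 peroxisome import genes PEX3 rose (0.54, adjusted p = 0.0023 from edgeR). Of the 21 NRF2 regulators and targets, the pathway that induces many antioxidant genes, edgeR and limma-voom called 0 and DESeq2 called 1, with 2 at an unadjusted p under 0.05 in edgeR.

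In conceptus sections 4 of the 95 pathway genes were called, or 4.21%, against 4.43% of all genes, so the lists stood no higher than genes at large. NOX4 fell there too, by a log2 value of -1.33 (SE 0.21, edgeR adjusted p = 0.0212). ERO1A, the oxidase that makes hydrogen peroxide while forming disulfides in the endoplasmic reticulum, rose by 1.36 (0.024), NCF1, a subunit of the phagocyte NADPH oxidase, by 2.18 (0.0261) and MAFF, a partner of NRF2, by 1.25 (0.0383). The lists of thioredoxin partners, metal supply, glutathione and peroxisome import had 0 called genes in edgeR, with 2, 3, 5 and 4 at an unadjusted p under 0.05. DESeq2 called 1, 2, 0 and 3 of them, and limma-voom called 0 in each. Of the 21 NRF2 genes, of which edgeR called 1 in sections, DESeq2 called 8 (5 higher and 3 lower) and limma-voom 3.

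Calls in conceptus tissue depended on the processing more than those in endometrium. Over all genes, 653 were called, and the count was 0 without culture set 3 and without culture set 5, 1 without set 2 and 4260 with 2 factors of unwanted variation. At an unadjusted p under 0.05 there were 2508 genes without set 3 and 3326 without set 5, against 4196 with all sections. The 4 pathway calls in sections are therefore absent without set 3 and without set 5.

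**Figure D4:**
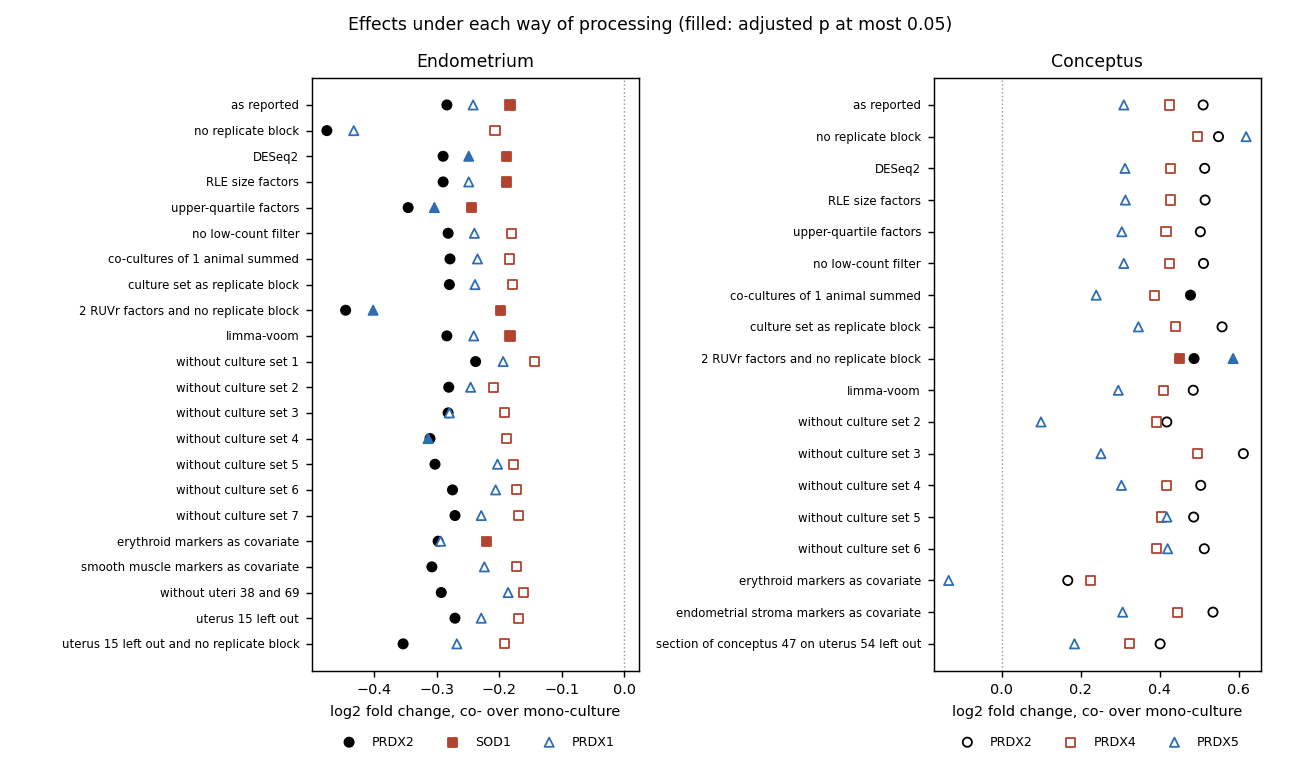
Log2 fold change of co- over mono-culture for 3 genes in endometrium (left) and 3 in conceptus tissue (right) under each way of processing; filled symbols have an adjusted p of at most 0.05. PRDX2 in endometrium is filled in every row, SOD1 as reported and in 6 of 21 alternatives, and conceptus PRDX2 moves to 0.17 with the erythroid markers as a covariate.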

How the data were processed

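RNA was measured by poly(A)-selected, stranded RNA-Seq. Per the labels and methods, reads were trimmed (Trimmomatic) and mapped to the ARS-UCD1.2 build, with STAR (explants) or HISAT2 (sections), and the authors deposited raw featureCounts counts per gene. Program versions were not given in the sources used here. Because both tables are counts, edgeR 4.0.16 in R 4.3.3 was used: filterByExpr (minimum count 10, total 15) kept 16443 and 14746 genes, TMM scaled libraries, levels are CPM from edgeR's cpm function, and robust quasi-likelihood tests compared co- with mono-culture, with Benjamini-Hochberg adjustment over all genes and a threshold of 0.05. The animal was the block: numbers in the titles name the uterus or conceptus, and same-animal libraries deviated together in 15 of 15 endometrial pairs (median r 0.349, against -0.0382 between animals) and 9 of 9 conceptus pairs (0.497, against -0.134). Libraries were put in 7 culture sets: 5 sets of uteri linked by a shared conceptus, uterus 38 alone, and uteri 15 and 17, which had no co-culture. Intervals cover 95% per gene, unadjusted. Standard errors are the fold change over the root of F. Alternatives used DESeq2 1.42.0, limma 3.58.1 and a residual-factor (RUVr) implementation with 2 factors. Scripts were tested on simulated data, where a pass criterion on the size of errors was replaced after it was missed for the difference between tissues. The simulation drew the 2 tissues independently, so it could not check the effect of shared wells. The 10 genes, the pathway and marker lists and the rules were chosen with earlier results of these data known; the rule names all 10 genes, up to 3 called genes per pathway list and tissue with the smallest adjusted p, and the 3 genes most correlated with each called member.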

Additional observations from a re-analysis of the deposited data

Results flagged for a closer look

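In the section of conceptus 47 on uterus 54, 4 genes lay far above the other 8 co-cultured sections: PRDX2 at 705 CPM (next highest 417), PRDX4 at 234 CPM (147), PRDX5 at 1540 CPM (678) and TXN at 812 CPM (459). Chance marks about 1 group in 20 by this criterion. The 4 marks, of 20 combinations of gene and conceptus group, all come from this 1 section and from genes that vary together, so they are not independent of each other and were not set against that rate. Its erythroid marker sum, 78.2 CPM, was also the highest of the sections, and its TMM scaling factor, 0.733, was the lowest. The part of either in these levels was not tested.

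The co-culture effect differed between tissues for PRDX2, by 0.78 on the log2 scale, and for PRDX4, by 0.58, though neither passed with the erythroid covariate. Both effects, not levels, were higher in conceptus tissue than in endometrium.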

How the results depend on the processing

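PRDX2 in endometrium passed in all 21 alternatives and its difference between tissues in 11 of 12. With no replicate block, PRDX2 in endometrium had a log2 fold change of -0.476, SOD1 -0.207, and the tissue differences of PRDX4 and PRDX3 were 0.512 and 0.11. SOD1 in endometrium missed the threshold there, and also at -0.181 without a filter, -0.184 with co-cultures of 1 animal summed, -0.179 with the culture set as the block, -0.172 with the smooth muscle covariate, -0.161 without uteri 38 and 69, -0.17 without uterus 15, -0.192 without uterus 15 and the block, and -0.21 to -0.144 leaving out culture sets. The PRDX4 difference missed at 0.559 with co-cultures that have both libraries, and spanned 0.489 to 0.71 leaving out sets. With erythroid covariates, chosen after seeing the data, the differences of PRDX2 and PRDX4 missed it at 0.444 and 0.436.

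Directions turned only in genes that were not called. In endometrium PRDX6 was -0.033 with upper-quartile factors, -0.00025 with the culture set as the block and -0.109 to 0.067 leaving out sets. In conceptus tissue the erythroid covariate gave -0.135 for PRDX5, -0.109 for SOD1, -0.025 for SOD2 and -0.422 for CAT. There TXN was -0.026 without the section of conceptus 47 on uterus 54 and CAT -0.011 with co-cultures summed. Leaving out sets gave -0.029 to 0.143 for PRDX6, -0.012 to 0.286 for SOD1, -0.019 to 0.2 for TXN and -0.208 to 0.243 for CAT in conceptus tissue. Leaving out sets, the tissue differences were -0.377 to 0.002 for PRDX3, -0.115 to 0.176 for PRDX6 and -0.176 to 0.326 for CAT, and erythroid covariates gave -0.056 for PRDX6 and -0.324 for CAT.

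Of all genes, 1733 were called in endometrium, 1056 with the culture set as the block, 2824 with 2 factors and no block, 1077 without uterus 15 and the block, and 948 to 1880 leaving out sets. In conceptus tissue 653 were called, 1068 with no block, 2666 with DESeq2, 2185 with co-cultures summed, 248 with the culture set as the block, 4260 with 2 factors, 1088 with limma-voom, 0 with the erythroid covariate (516 at an unadjusted p under 0.05), 1349 with the stroma covariate and 0 to 643 leaving out sets. The difference had 3054, 1733 with co-cultures that have both libraries, 243 with erythroid covariates, and 1489 to 3067 leaving out sets. The causes were not tested. With 7 paired conceptuses, the 95% interval of PRDX2 ran from 0.11 to 0.91, and with 11 paired uteri it ran from -0.41 to -0.16.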
